A study of Mus musculus with 9 samples.

Results

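The genes described here are 10 receptors and regulators of natural killer (NK) cells, followed in 4T1 primary tumors after treatment with BI 853520 (BI below), an inhibitor of focal adhesion kinase (FAK). They were taken by name, through their Entrez identifiers, and all 10 were present among the 18755 genes with deposited read counts. The tumors arose in the mammary fat pad (number 9) of female BALB/c mice, 6 to 10 weeks old, that had received 1000000 4T1 cells, a metastatic mammary carcinoma line of the same strain. Treatment began on day 15 and lasted 5 days, with 50 mg/kg BI for 6 tumors (BI replicates 4 to 9) and 0.5% Natrosol, the vehicle, for 3 tumors (vehicle replicates 1 to 3). Each library of messenger RNA came from a snap-frozen tumor piece, so each value below is an average over tumor cells, stroma and infiltrating leukocytes, and a higher value may mean more cells of a type or more RNA per cell, which cannot be told apart in bulk tumors.

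NK cells are innate lymphocytes that kill stressed or transformed cells without prior sensitization, and they read the surface of a target through activating and inhibitory receptors. Their development and survival depend on interleukin-15, presented by other cells and sensed through the receptor chain encoded by Il2rb, while interleukin-12 drives their production of interferon gamma. The T-box factors Eomes and T-bet (Tbx21) set their identity. Most of these genes are not private to NK cells: CD8 T cells, NKT cells and other innate lymphoid cells carry several of them, and Ncr1 is the most restricted of the receptors.

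On mm9, 4 of the 5 receptor genes lay in the NK gene complex of chromosome 6: Klrb1c (128728503 to 128739233, minus strand), Klrd1 (129541800 to 129548793, plus strand), Klrk1 (129560341 to 129573882, minus strand) and Klrc1 (129616033 to 129628991, minus strand). Ncr1 lay on chromosome 7 (4289326 to 4296766, plus strand). The regulators were spread over Il12rb2 on chromosome 6 (67241312 to 67326182, minus strand), Il15 on chromosome 8 (84855536 to 84927121, minus strand), Eomes on chromosome 9 (118387330 to 118395250, plus strand), Tbx21 on chromosome 11 (96959385 to 96976645, minus strand) and Il2rb on chromosome 15 (78310983 to 78325496, minus strand). No other annotated gene overlapped the span of any of the 10 genes. The NK gene complex differs between BALB/c mice and the C57BL/6 strain of the reference, which affects both groups alike. The values of close relatives within the Klrb1, Klrc, Klra and Raet1 families are uncertain because only uniquely aligned reads were counted.

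Sequence upstream of the receptor genes is shown as a description, and its part in their change after treatment was not tested. RefSeq promoter windows, from 250 bases before to 50 bases after a transcription start site on GRCm38.p6, were at hand for 7 of the 10 genes (8 windows) and were searched on both strands for 3 short motifs: the RUNX core TGTGGT, the T-box core GGTGTGA and the STAT motif TTCNNNGAA. RUNX3, STAT5 and T-box proteins are transcription factors with known roles in NK cells. The RUNX core was found in 5 of the 8 windows, belonging to the 4 receptor genes with a window (Ncr1, Klrk1, Klrb1c and Klrc1), against 16.8% of all 32851 windows. The windows of Ncr1 (chr7:4337465-4337764 and chr7:4337474-4337773) overlap almost fully and hold the same matches, so that promoter was counted more than 1 time. By gene, the core was found in 4 of 7. The STAT motif was found in 1 window, that of Il12rb2 (8.3% of all windows), and the T-box core in 0 (3.98% of all windows). These matches describe letters and not bound sites. The stretches below run 5′ to 3′ on the strand of the gene and end before the start site, with the RUNX core (or its reverse complement) in capitals. For Ncr1 the whole 250 bases upstream of its first start site are given (chr7:4337465-4337714, plus strand), and for the others 30 bases on each side of the match, for Klrk1 at chr6:129623958-129624023, for Klrb1c at chr6:128788695-128788760 and for Klrc1 at chr6:129679025-129679090, all on the minus strand.
Ncr1: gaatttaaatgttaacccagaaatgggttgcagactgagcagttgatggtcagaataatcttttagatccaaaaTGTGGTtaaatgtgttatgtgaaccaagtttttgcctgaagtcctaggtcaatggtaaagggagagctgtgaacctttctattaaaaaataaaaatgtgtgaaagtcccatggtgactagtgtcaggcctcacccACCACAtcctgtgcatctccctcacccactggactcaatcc
Klrk1: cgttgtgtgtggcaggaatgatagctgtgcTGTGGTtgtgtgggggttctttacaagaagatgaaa
Klrb1c: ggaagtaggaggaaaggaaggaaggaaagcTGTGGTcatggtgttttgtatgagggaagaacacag
Klrc1: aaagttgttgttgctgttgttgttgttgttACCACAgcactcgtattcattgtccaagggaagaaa

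Depth ranged from 21727879 to 33850245 counts in vehicle-treated tumors and from 16931607 to 22349873 in BI-treated tumors, with TMM factors between 0.984 and 1.02. Expression is given as CPM, that is counts scaled to a common library size with edgeR's TMM method, as mean ± SD (n = 3 for vehicle, n = 6 for BI). Calls of higher or lower rest on edgeR's quasi-likelihood test of 13966 genes, with p adjusted over all of them (Benjamini-Hochberg) and a limit of 0.05, and SE is the standard error of a log2 fold change. All 10 genes passed the filter on low counts, their lowest count in any tumor being 21, and counting error limits Ncr1, Klrc1 and Tbx21 most. BI replicate 4 was most often at an end of the range of the BI-treated tumors in these genes: it was the lowest of the 6 in 7 of the 10 genes and the highest in 2 others (Ncr1 and Klrb1c).

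BI treatment was accompanied by higher expression of 8 of the 10 genes and lower expression of none. Over all genes tested, 14.6% were called higher and 14.1% lower, 28.7% in either direction. All 5 NK receptors, both cytokine receptor chains and the transcription factor gene Tbx21 rose, with fold changes from 1.76 to 3.03, whereas Eomes and the cytokine gene Il15 did not pass the test. The same 8 genes passed the study's own cutoffs (an unadjusted p of 0.05 and a minimum fold change), as did 9.59% of all genes upward and 3.57% downward. The median log2 fold change of the 10 genes was 1.15, against -0.00371 over all genes tested. The groups did not overlap in these 8 genes, a separation also seen upward in 14.1% and downward in 14% of all genes tested.

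**Figure D1:**
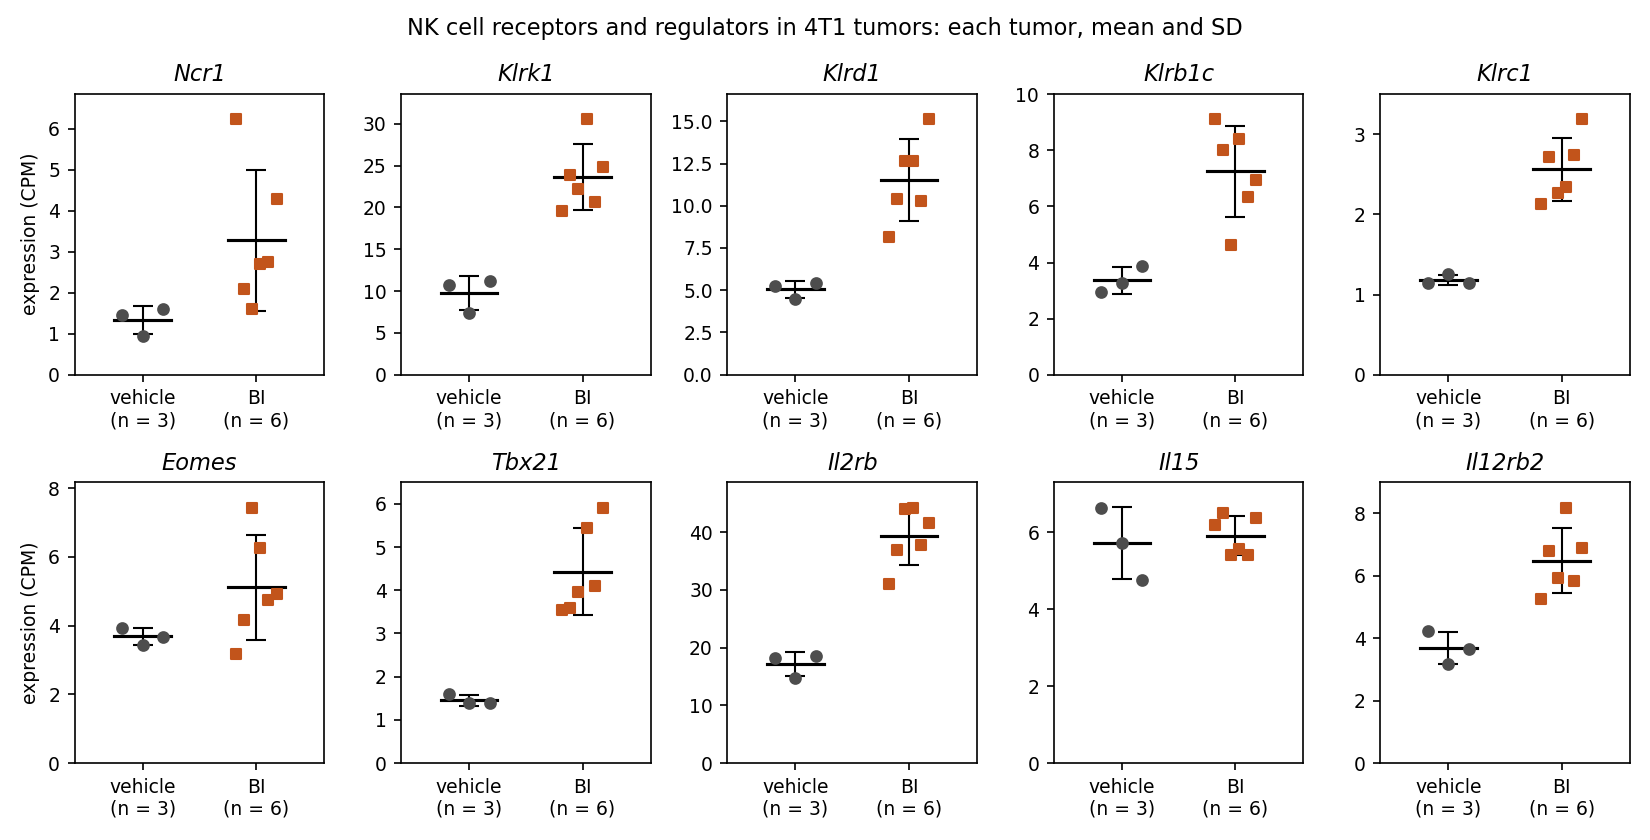
Expression of the 10 NK receptors and regulators in each tumor, in CPM on a linear axis from 0 that differs between panels; circles are vehicle-treated and squares BI-treated tumors, horizontal lines are means and bars SD. The groups are separate in 8 panels and overlap in those of Eomes and Il15.

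Klrk1 encodes NKG2D, an activating receptor for stress-induced ligands on tumor cells. It had 10.8, 7.43 and 11.2 CPM in the 3 vehicle-treated tumors and ranged from 19.6 to 30.6 CPM with a median of 23.05 CPM in the BI-treated tumors. The lowest BI-treated tumor was thus well above the highest vehicle-treated tumor. The means were 9.79 ± 2.06 and 23.6 ± 3.93 CPM, which in log2 terms is 1.27 higher (SE 0.162, edgeR adjusted p = 0.00022).

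Klrd1 (CD94) and Klrc1 (NKG2A) encode the 2 chains of an inhibitory receptor that recognizes the nonclassical MHC molecule Qa-1. Klrd1 had 5.27, 4.47 and 5.42 CPM in vehicle-treated tumors and 8.17 to 15.1 CPM (median 11.5) in BI-treated tumors. Klrc1 had 1.15, 1.25 and 1.15 CPM in vehicle-treated tumors and 2.13 to 3.19 CPM (median 2.52) in BI-treated tumors. For both chains BI replicate 4 was the lowest and BI replicate 9 the highest of the treated tumors, and neither gene overlapped between groups. The log2 fold changes were similar, 1.19 for Klrd1 (SE 0.18, edgeR adjusted p = 0.000612) and 1.11 for Klrc1 (SE 0.204, edgeR adjusted p = 0.00207).

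Klrb1c encodes NKR-P1C, the activating receptor known as NK1.1 in C57BL/6 mice. Its values were 2.93, 3.27 and 3.89 CPM in vehicle-treated tumors and ran from 4.64 to 9.12 CPM, with a median of 7.49 CPM, in BI-treated tumors. The treated tumors lay above the controls, although the lowest of them, BI replicate 6, came close. Klrb1c rose from 3.36 ± 0.485 to 7.25 ± 1.62 CPM (log2 fold change 1.10, SE 0.207, edgeR adjusted p = 0.0024).

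Ncr1, which encodes the activating receptor NKp46 and is the gene among the 10 most closely tied to NK and related innate lymphoid cells, was low and the most variable of the 10. The vehicle-treated tumors had 32, 21 and 54 reads (1.47, 0.939 and 1.59 CPM), and the BI-treated tumors between 33 and 132 reads (1.59 to 6.24 CPM, median 2.72). The separation was minimal, the lowest treated tumor (BI replicate 6, 1.594 CPM) lying next to the highest control (1.591 CPM), and the highest were BI replicate 4 (6.24 CPM) and BI replicate 9 (4.29 CPM). Ncr1 rose by a log2 fold change of 1.28 (95% confidence interval 0.39 to 2.17, adjusted p = 0.0349 from edgeR), and its coefficient of variation among BI-treated tumors was 52.3% against 8.51% to 29.7% for the other 9 genes. Without BI replicate 4 the log2 fold change was 0.99 (adjusted p = 0.045 from edgeR). The call was lost without vehicle replicate 1, 2 or 3 (adjusted p = 0.0832, 0.122 and 0.0749), without BI replicate 9 (0.057) and with limma-voom (0.0666).

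The 2 T-box factors differed. Tbx21 encodes T-bet, which drives the maturation of NK cells and type 1 T cells. It had 1.60, 1.39 and 1.38 CPM in vehicle-treated and 3.54 to 5.91 CPM (median 4.03) in BI-treated tumors, and showed the largest fold change of the 10 genes (log2 fold change 1.60, SE 0.22, edgeR adjusted p = 0.000339). Eomes, which encodes Eomesodermin and marks conventional NK cells and memory-type CD8 T cells, had 3.94, 3.44 and 3.68 CPM in vehicle-treated and 3.17 to 7.44 CPM (median 4.83) in BI-treated tumors. Of the treated tumors, 5 lay above all controls and 1, BI replicate 4, lay below all of them. The log2 fold change of Eomes was 0.47 with a 95% confidence interval from -0.04 to 0.98 (adjusted p = 0.15 from edgeR), so that a rise of up to 1.98-fold is within the interval. Without BI replicate 4, Eomes passed at 0.58 (adjusted p = 0.0498 from edgeR). A direct comparison, chosen after these values were seen, took the log2 ratio of Tbx21 to Eomes in each tumor. It was -1.29 ± 0.0579 in vehicle-treated and -0.18 ± 0.404 in BI-treated tumors, a difference of 1.11. The ratio was higher in 6 of 6 treated tumors than in any control (exact permutation test, two-sided, p = 0.0238, the smallest that 84 divisions of the 9 tumors allow). Since this pair was chosen after its unlike changes were seen, this p is descriptive only.

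Among the cytokine genes, the receptors rose and the ligand did not pass the test. Il2rb, which encodes the beta chain shared by the interleukin-2 and interleukin-15 receptors, had 18.2, 14.7 and 18.5 CPM in vehicle-treated and 31.1 to 44.3 CPM (median 39.7) in BI-treated tumors. Its rise had the smallest p of the 10 genes (log2 fold change 1.19, SE 0.122, edgeR adjusted p = 5.4e-05). Il12rb2, the signaling chain of the interleukin-12 receptor, had 4.22, 3.18 and 3.65 CPM in vehicle-treated and 5.24 to 8.18 CPM (median 6.36) in BI-treated tumors, the smallest of the 8 rises (log2 fold change 0.82, SE 0.165, edgeR adjusted p = 0.00368). Il15 had 6.65, 5.73 and 4.77 CPM in vehicle-treated tumors, and all 6 BI-treated tumors, from 5.41 to 6.52 CPM, lay within that range. Its log2 fold change was 0.06, with a 95% confidence interval from -0.24 to 0.35 (adjusted p = 0.792 from edgeR), which in fold terms spans 0.847 to 1.27. The log2 ratio of Il2rb to Il15, also chosen after the values were seen, went from 1.58 ± 0.317 to 2.71 ± 0.27. The difference was 1.13, with 6 of 6 treated tumors above all controls (exact permutation test, two-sided, p = 0.0238). The groups were already separate in Il2rb alone, so this p is likewise descriptive only.

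**Figure D2:**
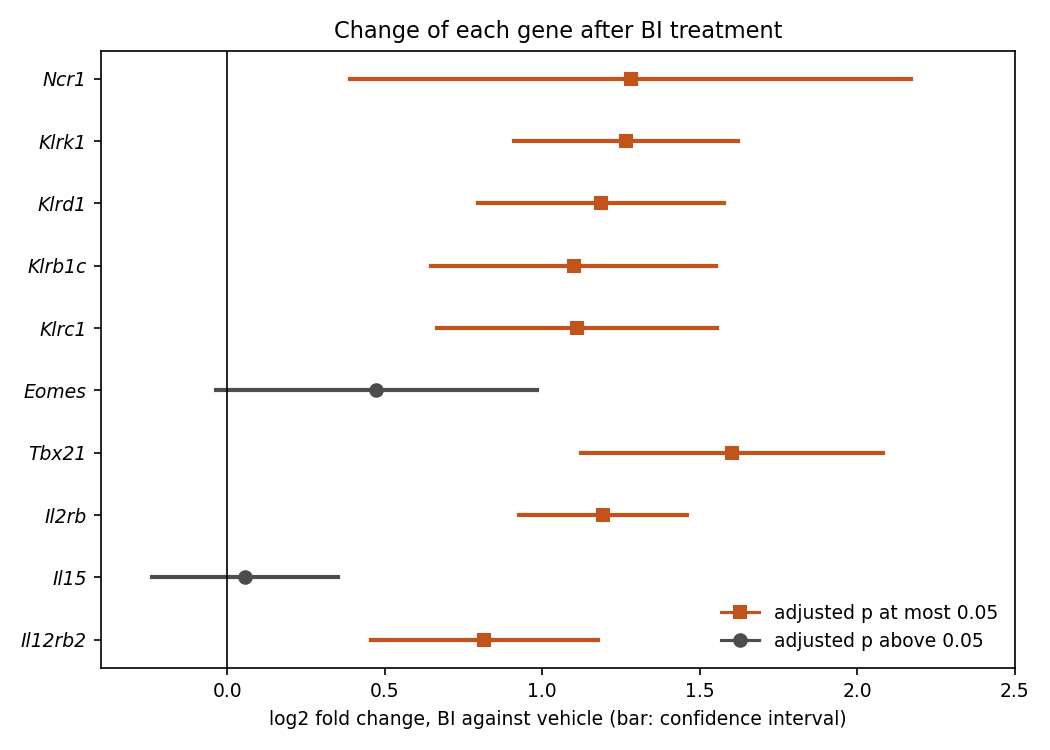
Log2 fold change of each gene, BI against vehicle, with its 95% confidence interval (bars) from edgeR's quasi-likelihood test; squares passed an adjusted p of 0.05 and circles did not. The intervals of Eomes and Il15 include 0, and Tbx21 has the largest estimate at 1.60.

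The order of expression levels was read from CPM per kilobase of the deposited gene length (RPKM). In vehicle-treated tumors Il2rb (6.36 ± 0.784 RPKM), Klrd1 (5.84 ± 0.588) and Il15 (4.45 ± 0.729) were the most abundant, and the ranges of neighbors in this order overlapped. Klrk1 followed at 2.97 ± 0.624 RPKM and Klrc1 at 1.61 ± 0.0825 RPKM, each separate from its neighbors. Klrb1c, Il12rb2, Eomes and Ncr1 lay between 0.911 and 1.28 RPKM, and Tbx21 was lowest at 0.572 ± 0.0495 RPKM. In BI-treated tumors Il2rb (14.6 ± 1.87 RPKM) and Klrd1 (13.3 ± 2.81) overlapped again at the top, Klrk1 (7.17 ± 1.19) stood above Il15 (4.60 ± 0.392), and Eomes (1.38 ± 0.409) took the last place, with a range that overlapped that of Tbx21 (1.73 ± 0.393). The partners Klrd1 and Klrc1 differed in level in each of the 9 tumors, Klrd1 being more abundant per length. The values of Klrc1 are uncertain, as stated above for its family. Levels per length also depend on the length used. The deposited length was 735 bases for Klrc1 and 866 for Klrd1, against 1984 and 1281 exon bases annotated on mm9.

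Because marker genes of leukocytes also differed between the groups, each gene was set against marker genes of the same tumor. The 4 genes Ptprc, Laptm5, Cd53 and Coro1a are expressed by most leukocytes. Their mean log2 CPM was 7.39 to 7.57 in vehicle-treated and 7.92 to 8.28 in BI-treated tumors, a difference of 0.60. Singly, their log2 fold changes ran from 0.33 for Cd53 to 0.76 for Laptm5. Relative to these genes, Tbx21 was still higher by 0.92, Klrk1 by 0.67, Il2rb by 0.59 and Klrc1 by 0.45 on the log2 scale, with 6 of 6 treated tumors above all controls (exact permutation test, two-sided, p = 0.0238 each). Klrd1 was higher by 0.56 (5 of 6 tumors, p = 0.0476 in the same exact test), a call that was lost without any 1 of BI replicates 5 to 9 (exact p = 0.0714). That of Klrc1 was lost with Ptprc as the only reference gene (0.32, exact p = 0.0952). Il15 was lower by 0.54, with all 6 treated tumors below all controls (exact p = 0.0238). Ncr1 (0.53, exact p = 0.238), Klrb1c (0.47, p = 0.0714), Il12rb2 (0.20, p = 0.143) and Eomes (-0.19, p = 0.548) did not pass.

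T cells gave another picture. The mean log2 CPM of Cd3d, Cd3e and Cd3g, the invariant chains of the T cell receptor complex, was 3.09 to 3.18 in vehicle-treated and 3.90 to 4.46 in BI-treated tumors, a difference of 1.09. Relative to these chains, none of the 5 NK receptors passed the test. Their differences were 0.04 for Ncr1, 0.18 for Klrk1, 0.06 for Klrd1, -0.03 for Klrb1c and -0.04 for Klrc1 on the log2 scale (exact p from 0.262 to 0.976), and that of Il2rb was 0.10 (exact p = 0.262). Among the treated tumors the ratio of Ncr1 to these chains spread from -3.65 to -1.24, and that of Klrd1 from -0.86 to -0.51. The log2 ratio to the T cell chains was higher in BI-treated than in vehicle-treated tumors by 0.43 for Tbx21. It was lower by 0.68 for Eomes, by 0.30 for Il12rb2 and by 1.03 for Il15. For each of these genes, 6 of 6 treated tumors lay on the same side of all controls (exact permutation test, two-sided, p = 0.0238). The ratios to leukocyte and T cell genes make 20 tests, of which 10 had an exact p of at most 0.05, and they were not adjusted. The ratios of Tbx21 to Eomes and of Il2rb to Il15 are not among them.

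**Figure D3:**
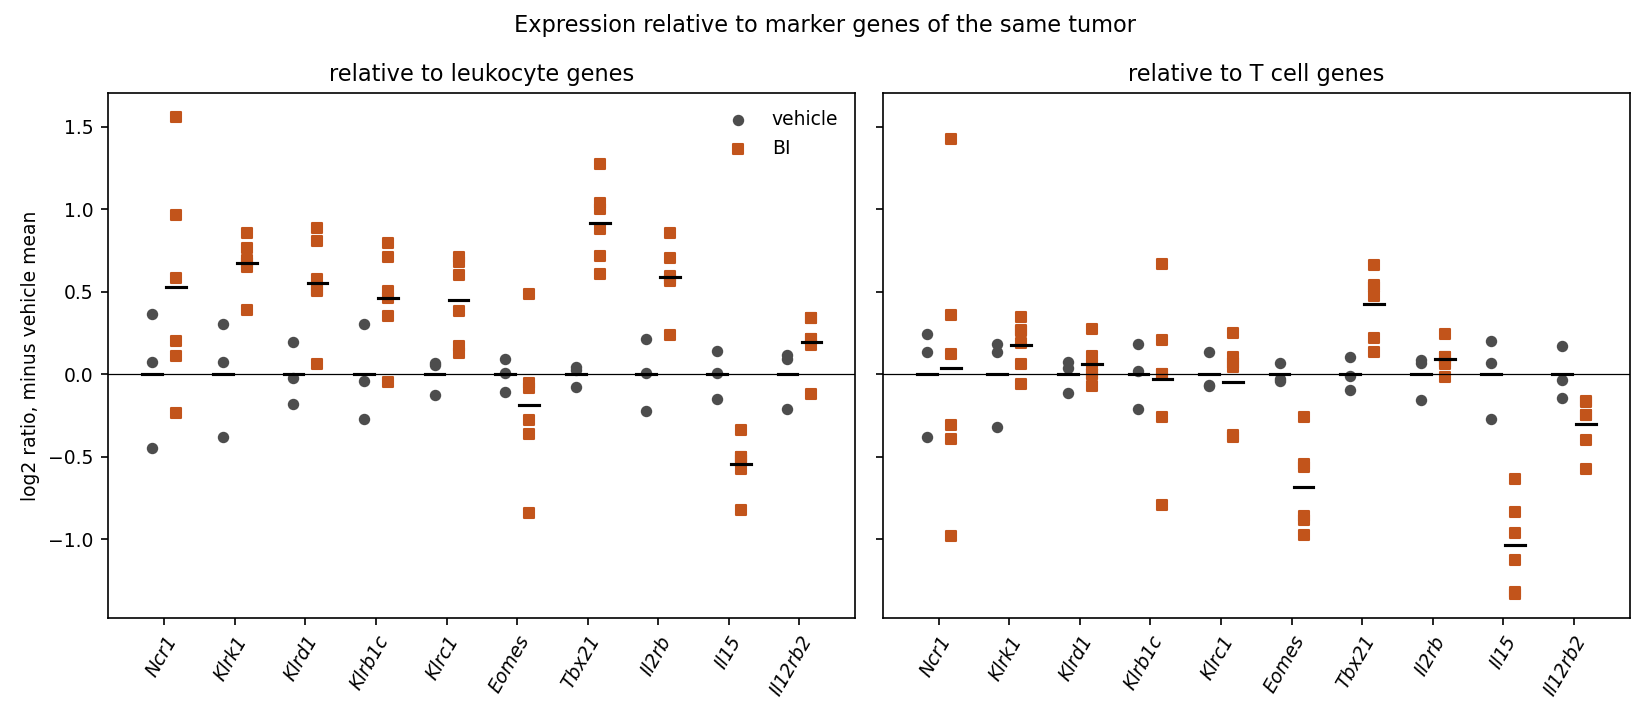
Log2 ratio of each gene to 4 leukocyte genes (left) or to 3 T cell receptor complex genes (right) of the same tumor, minus the mean of the vehicle-treated tumors; circles are vehicle-treated and squares BI-treated tumors, and short lines are group means. Relative to T cell genes the 5 receptors scatter around 0, Tbx21 lies above it, and Eomes, Il15 and Il12rb2 lie below.

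Markers of several cell types moved with treatment, and their part in the values above was not tested beyond these ratios. The shares over all genes tested were 14.6% called higher and 14.1% called lower. Of 12 T cell markers, 11 were called higher, with a summed level of 84.5 to 94.96 CPM in vehicle-treated and 151 to 220.1 CPM in BI-treated tumors. Cd8a rose by 1.23 and Cd3e by 1.14 on the log2 scale, whereas Cd4 did not pass (0.39, adjusted p = 0.192 from edgeR). All 8 macrophage markers were higher (summed 1687 to 2247 and 3335 to 4098 CPM), as were 6 of 8 dendritic cell markers (74.4 to 89.9 and 116 to 178 CPM). Of 4 B cell markers tested, 2 were higher (summed over the list 4.83 to 8.02 and 5.94 to 11.3 CPM). Of 3 tested markers of NKT and gamma-delta T cells, 1 was higher, Sox13 (summed over the list 10.3 to 11.5 and 12.7 to 15.5 CPM). Of 5 neutrophil markers 4 were lower (515 to 739 and 208 to 361 CPM), and of 5 tumor epithelial markers 2 were lower, Krt18 and Krt8 (935 to 1161 and 733 to 936 CPM). Most of this epithelial sum is from Krt18 and Krt8. The other 3 were low, did not pass and went in different directions, with log2 fold changes of 1.06 for Epcam, 0.59 for Krt7 and -0.67 for Cldn4. The 5 adipocyte markers and the 4 skeletal muscle markers tested did not pass, with sums of 33.0 to 55.0 and 50.9 to 252 CPM for adipocytes and of 4.45 to 17.2 and 4.11 to 12.6 CPM for muscle.

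The other genes of the NK pathway came from 8 lists with 96 genes tested, of which 59 were called higher and 7 lower. The shares over all genes tested, 14.6% higher and 14.1% lower, also stand beside the counts of each list below. Counts near these shares are not read as a result about a list. Their median log2 fold change was 0.67. Among 11 other lectin-like and Ly49 receptors tested, 7 were higher and 0 lower. Klrb1b, an inhibitory relative of Klrb1c, rose from 7.70 ± 1.17 to 15.3 ± 3.14 CPM (adjusted p = 0.00184 from edgeR) and Klre1 from 0.923 ± 0.104 to 2.26 ± 0.466 CPM (0.00241). Klra2, the most abundant of this list and known from myeloid cells rather than NK cells, rose from 31.6 ± 4.70 to 56.6 ± 6.99 CPM. A further 6 genes of this list, 5 of them Klra genes, were counted but fell below the filter. Klrg1, a marker of terminal differentiation, had 1.37 ± 0.713 and 1.70 ± 0.397 CPM (adjusted p = 0.468 from edgeR).

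Of 14 co-receptors and adhesion receptors, 11 were called higher and 2 lower. Slamf6, a receptor of the SLAM family on NK and T cells, rose by 1.33 and the adhesion receptor gene Cd2 by 1.16 on the log2 scale, and Fcgr3, the most abundant per length, which encodes an Fc receptor of NK and myeloid cells, by 0.79. Receptors that share ligands of the nectin family went in different directions. Cd226 rose from 2.59 ± 0.513 to 6.35 ± 1.30 CPM (log2 fold change 1.30, adjusted p = 0.000926 from edgeR). Cd96 rose from 1.87 ± 0.522 to 5.05 ± 0.881 CPM (1.43, 0.000607), while Tigit fell from 8.23 ± 1.17 to 4.99 ± 0.412 CPM (-0.72, 0.00142). Itga2, whose product is the DX5 antigen of BALB/c NK cells but which epithelial cells also express, fell from 23.7 ± 2.54 to 12.8 ± 2.77 CPM (adjusted p = 0.00156 from edgeR).

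The ligands of NK receptors were divided, with 3 of 12 called higher, 3 lower and a median log2 fold change of -0.20. Pvr and Nectin2, nectin-family ligands of NK receptors, were lower in all 6 treated tumors than in any control. Pvr fell from 92.6 ± 3.04 to 67.0 ± 3.64 CPM (adjusted p = 0.000165 from edgeR) and Nectin2 from 57.2 ± 2.75 to 40.2 ± 2.39 CPM (0.00019). Of the NKG2D ligands, Ulbp1 fell from 25.6 ± 3.08 to 16.8 ± 1.91 CPM (0.00157), while Raet1d, Raet1e, H60b and H60c did not pass, with log2 fold changes of -0.34, -0.44, -0.05 and -0.72. Raet1a, Raet1b and Raet1c could not be matched to the counts and H60a was not looked for, so this set of ligands is incomplete. Cd48, a ligand for the receptor 2B4 that leukocytes themselves carry, rose from 22.9 ± 2.02 to 44.5 ± 3.92 CPM (3.84e-05). H2-T23, which encodes Qa-1, the ligand of CD94/NKG2A, was the most abundant of the list at 343 ± 4.71 and 369 ± 22.6 CPM and did not pass (adjusted p = 0.225 from edgeR).

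All 13 adaptor and proximal signaling genes tested were called higher. Tyrobp, which encodes the adaptor DAP12, rose from 137 ± 7.15 to 219 ± 12.2 CPM, and Fcer1g, the signaling chain of Fc receptors and NKp46, from 169 ± 13.9 to 288 ± 27.1 CPM (log2 fold changes 0.67 and 0.77). Plcg2, a phospholipase downstream of activating receptors, rose by 1.20 and Inpp5d, the inhibitory phosphatase SHIP1, by 0.92. These genes are also active in macrophages, whose markers rose, and a part of macrophages in the rises of these genes was not tested. Hcst, the DAP10 adaptor that pairs with NKG2D, rose by 0.84 (SE 0.192, edgeR adjusted p = 0.00717).

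Of 13 further NK and innate lymphoid transcription factor genes, 7 were higher and 1 lower. Id2, required for NK cell development and the most abundant per length, rose by 0.71 and Irf8 by 0.45 on the log2 scale. Runx3 rose from 24.7 ± 1.54 to 34.9 ± 4.76 CPM (log2 fold change 0.50, adjusted p = 0.00647 from edgeR), and a link to the promoter matches above was not tested. Tox (1.62), Prdm1 (0.77) and Ikzf2 (0.71) of the same list rose more on the log2 scale. Ets1 fell by 0.52 on the log2 scale (adjusted p = 0.000166 from edgeR). Nfil3, Gata3, Tcf7 and Rora did not pass, with log2 fold changes from -0.12 to 0.43.

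In the interleukin-2 and interleukin-15 pathway 6 of 11 genes were higher and 0 lower. Il21r rose by 0.87 on the log2 scale, Stat5a by 0.33 and Stat5b by 0.29. Without vehicle replicate 3, Stat5a lost its call (0.28, edgeR adjusted p = 0.0527). The common gamma chain gene Il2rg, the most abundant per length, had 152 ± 9.70 and 177 ± 14.6 CPM, a log2 fold change of 0.22, against 1.19 for its partner Il2rb. Its call (adjusted p = 0.0447 from edgeR) was lost in 8 of 16 alternative fits, and with vehicle replicate 2 left out its adjusted p was 0.171. Il15ra, which presents interleukin-15, had 21.7 ± 4.05 and 22.7 ± 3.02 CPM and, like Il15, did not pass (adjusted p = 0.758 from edgeR). In the interleukin-12 and interleukin-18 pathway 4 of 12 genes were higher and 1 lower: Tyk2 rose by 0.42, Il18r1 by 0.90, Il18bp by 0.52 and Ebi3 by 0.62, and Jak2 fell by 0.41 on the log2 scale. Il12rb1, the partner of Il12rb2, had 32.3 ± 3.50 and 33.7 ± 5.48 CPM and did not pass (adjusted p = 0.77 from edgeR).

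Of 10 cytotoxic effector genes, 8 were called higher and 0 lower. Gzmb (granzyme B) rose by 1.42, Nkg7 by 1.42 and Prf1 (perforin) by 1.37 on the log2 scale. The 5 NK receptors had values from 1.10 to 1.28, and the difference from them was not tested.

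**Figure D4:**
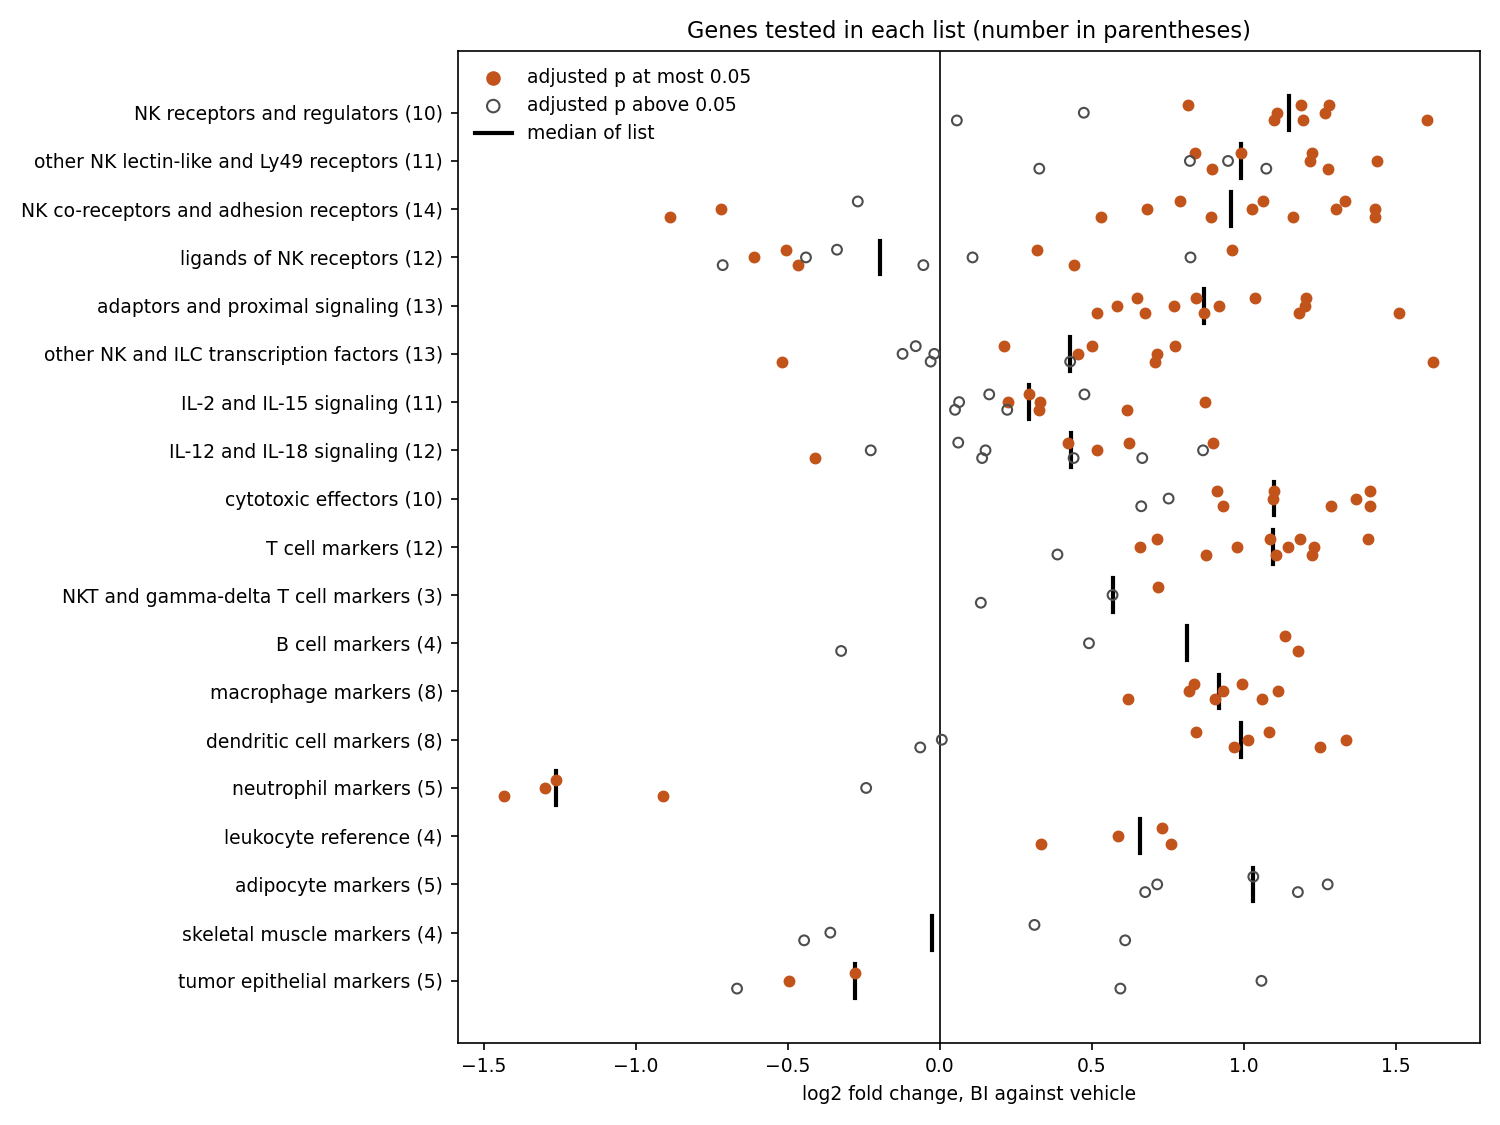
Log2 fold changes, BI against vehicle, of the genes tested in each list, with filled points for those called and a black line at the list's median. The NK receptors and regulators have a median of 1.15, the ligands of NK receptors of -0.20 and the neutrophil markers of -1.26.

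The genes whose expression varied most like that of Ncr1 among tumors of the same group were found by Pearson correlation of log2 CPM, each group centered on its mean, over the 9 tumors and 12958 other genes with a mean of at least 1 CPM. They were Tfdp2, Ptpn12, Gcnt2, Cped1 and Slco5a1, with r from 0.969 to 0.975, and from 0.945 to 0.974 with BI replicate 4 dropped after the centering. These values are the highest of many and describe only these tumors, which share the depth and composition of each library. None of the other 9 NK genes was near the top of this order, the closest being Klrb1c (r = 0.61) and the farthest Eomes (r = -0.65). These values turned on BI replicate 4. With it dropped after the centering, Tbx21 had r = 0.67, Klrc1 0.50, Klrd1 0.50 and Klrk1 0.46, while Eomes stayed below 0 at -0.34. Klrb1c fell to 0.45, and Il12rb2 had 0.40, Il2rb 0.23 and Il15 0.14. The group mean used for centering still included BI replicate 4, so these r are not fully free of that tumor.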

How the data were processed

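RNA sequencing of 9 tumors was used, 3 vehicle-treated and 6 BI-treated. The paper kept only tumors whose RNA was of sufficient quality, and the sources used here do not say how many were left out of each group. The authors aligned paired-end reads to mm9 with STAR, keeping unique hits, and used QuasR to assign reads to genes by their start in RefSeq exons; the deposited values are raw counts and a gene length in bases (unit: other), without normalization. The sources used here do not give the strand setting of the counting. RefSeq gave symbols for 18700 of the 18755 Entrez identifiers, and GENCODE gave positions on mm9. Promoter windows came from RefSeq on GRCm38.p6.

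Counts were analysed with edgeR 4.0.16 in R 4.3.3 (TMM, filterByExpr with a minimum count of 10 and minimum total of 15, quasi-likelihood test, Benjamini-Hochberg adjustment over 13966 genes), which was tested on simulated data. Log2 CPM used a prior count of 2. Single values were compared by exact permutation tests over 84 divisions, unadjusted and two-sided. The labels name no batch and do not state that each tumor came from a separate mouse, in which case p-values measure only the spread between these samples. Alternatives were RLE or library-size scaling, 2 other filters, edgeR's likelihood ratio test, DESeq2 1.42.0, limma-voom (limma 3.58.1), the study's cutoffs, a prior count of 0.5, 1 reference gene, and leaving out each tumor. Of 188 list entries, 177 were in the counts. Named were all 10 genes, per list the 3 called genes with the smallest p and the most abundant per length, and the 5 most like Ncr1. Outside this rule, chosen after their values were seen, were Klrg1, Cd226, Cd96, Tigit, Itga2, the NKG2D ligands, Hcst, Runx3, 4 transcription factor genes that did not pass, Il15ra, Il12rb1, Il18bp, Ebi3 and Cd4. Tox, Prdm1, Ikzf2, Epcam, Krt7 and Cldn4 were also outside it and chosen in the same way. The genes, lists and tests were chosen with earlier results of these data known.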

Additional observations from a re-analysis of the deposited data

Results flagged for a closer look

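The spread among the 6 BI-treated tumors was examined for the 10 NK genes and for the summed CPM of 18 gene lists, 28 sets of values in all, with Dixon's test at its 95% critical value of 0.625. By chance about 1 in 20 such sets would stand out, and 2 did. The summed adipocyte markers reached 252 CPM in BI replicate 9, far above the other treated tumors (50.9 to 121 CPM). The summed dendritic cell markers reached 178 CPM in BI replicate 5, against 116 to 130 CPM in the others. None of the 10 NK genes stood out by this test, Ncr1 included.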

How the results depend on the processing

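The number of NK genes called higher stayed between 7 and 9 in all alternatives and the number called lower stayed at 0, with 7 to 9 and 0 when each tumor was left out. The number of pathway genes called higher lay between 44 and 63 with each tumor left out, the lowest without vehicle replicate 3, and those called lower between 7 and 8. The study's cutoffs left 4 pathway genes lower in place of 7, of which Tigit, Itga2 and Ulbp1 were among the 7 and H60c was not; they differ in both the p and the fold limit. Over the 10 NK genes, 153 of 160 refits left the call as it was. Ncr1 lost its call in 5, Eomes gained one without BI replicate 4, and Il15 changed sign, to -0.0657, without vehicle replicate 3. With each tumor left out, the log2 fold change of Il15 ran from -0.07 to 0.18, that of Ncr1 from 0.99 to 1.44 and that of Eomes from 0.33 to 0.58. Relative to leukocyte genes, 5 to 7 of the 10 genes passed, where 6 did at first. Klrd1 lost its call in 5 refits, and Klrc1 with Ptprc as the only reference gene (0.32, exact p = 0.0952). Klrb1c passed with a prior count of 0.5 or without BI replicate 6, and Il12rb2 without BI replicate 4. Relative to T cell genes, 4 of 10 passed in every refit that kept the 3 vehicle-treated tumors. The differences of Ncr1 (-0.24 to 0.24), Klrb1c (-0.17 to 0.13) and Klrc1 (-0.10 to 0.0221), none of which had passed, changed sign in 3 refits each. Without 1 vehicle-treated tumor an exact test cannot go below 0.0714, so only the direction was read there. No paired analysis was possible because the labels give the groups no shared replicate numbers.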
